A study of Mus musculus with 8 samples.

Results

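Adult mouse haemoglobin is built from alpha chains and beta chains, and in C57BL/6 mice each chain is encoded by a pair of neighbouring genes. The 4 genes described here are Hba-a1 and Hba-a2 (alpha globin) and Hbb-bs and Hbb-bt (beta globin). They were chosen by symbol, 4 of the 52636 genes in the count table, and all 4 had enough counts to be tested. Globin genes are switched on strongly as erythroblasts mature, are driven by the erythroid factors GATA1, KLF1 and TAL1, and need matched alpha and beta output, since unpaired chains are toxic to the cell. The mouse spleen makes red cells as well as clearing them, and it can raise its erythroid output after blood loss or irradiation, so globin RNA in this organ comes from resident erythroblasts and from young red cells held in the red pulp.

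RNA was sequenced from whole spleens of C57BL/6 mice that were 6 weeks old. The 4 groups were Lmna R527C mutant mice 7 days after 4 Gy, wild type mice 7 days after 4 Gy, unirradiated Lmna R527C mutant mice sampled at day 0, and unirradiated wild type mice sampled at day 0, with 2 libraries in each. Lmna encodes the nuclear lamins A and C. The labels do not give the zygosity of the mutation, the sex of the mice or the shielding of any tissue, and nothing in them ties the 2 libraries of a group to separate litters or days. A p-value here therefore reflects the spread among the libraries, part of which may be technical. Gene counts cannot show the substitution itself. Libraries held 12100784 to 19455470 gene counts. In bulk tissue, fewer cells of a type and less RNA per cell cannot be told apart.

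Several features of the libraries move with the groups and touch every irradiation comparison below. All 4 irradiated libraries had 0 counts for Eif2s3y, Ddx3y, Uty and Kdm5d, which are Y-linked, and unirradiated libraries had 17.9 to 122 CPM of each, where CPM stands for counts relative to the scaled library total. Xist, the X-linked RNA of female cells, had between 1028 and 1774 CPM in irradiated libraries. In unirradiated libraries, Xist and these Y-linked genes together summed to at most 299 CPM. Such counts are typical of female mice in the irradiated groups and male mice in the unirradiated groups, though the labels give no sex. Irradiation and this difference cannot be told apart. The 6 hepatocyte markers summed to between 52.4 and 442 CPM in irradiated libraries and to between 0.261 and 0.976 CPM in unirradiated libraries, where the defining marker Alb was at 0. The 6 B cell markers summed to between 72.1 and 1187 CPM in irradiated libraries and to between 1800 and 3699 CPM in unirradiated libraries. The irradiated mutant libraries also stood apart from each other: B cell markers summed to 72.1 CPM in replicate 1 and 941 CPM in replicate 2, T cell markers to 131 and 1015 CPM, and hepatocyte markers to 442 and 52.4 CPM. Mitochondrial genes held 2.38% of counts in replicate 1 and 5.40% in replicate 2, against 3.64% and 4.44% in irradiated wild type and 2.34% to 2.63% in unirradiated libraries. The part of these differences in the globin results was not tested.

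The members of each pair are almost the same gene, which bears on every value given for a single copy. Hba-a1 (ENSMUSG00000069919.7) lies on chromosome 11 of GRCm38, start 32283511, end 32284465, and Hba-a2 (ENSMUSG00000069917.7) on the same chromosome, start 32296489, end 32297298, both on the plus strand. Hbb-bs (ENSMUSG00000052305.6) lies on chromosome 7, start 103826534, end 103828096, and Hbb-bt (ENSMUSG00000073940.3) on chromosome 7, start 103812524, end 103813996, both on the minus strand. The alpha copies differ at 1 of 426 coding bases, C381T from Hba-a1 to Hba-a2, and the beta copies at 1 of 441, C417T from Hbb-bs to Hbb-bt. Positions are counted from 1 at the A of the start codon, and both differences fall on the third base of a codon. The coding stretches around these differences are shown because they are the only places in the coding sequence where a read can tell the copies apart. They are taken from the GENCODE M21 transcripts, and the capital marks the base that differs.
Hba-a1: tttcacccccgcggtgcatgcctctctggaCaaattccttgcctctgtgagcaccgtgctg
Hba-a2: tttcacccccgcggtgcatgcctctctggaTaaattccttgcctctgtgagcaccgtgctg
Hbb-bs: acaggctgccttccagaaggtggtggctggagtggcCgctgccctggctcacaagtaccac
Hbb-bt: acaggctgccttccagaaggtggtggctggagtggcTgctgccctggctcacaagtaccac

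Over the whole spliced transcripts, 67.5% of the 50-base words of Hba-a1 also occur in Hba-a2, and 86.9% of those of Hba-a2 occur in Hba-a1. For the beta pair, 65.8% of the words of Hbb-bs occur in Hbb-bt and 58.3% of those of Hbb-bt occur in Hbb-bs. The sources used here do not say how the authors' counting treated reads that match both copies. Values for a single copy are therefore uncertain. If such reads were dropped, the sum of each pair and the alpha to beta ratio would be affected too, which was not tested.

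The promoters are shown because the 4 genes move together across the libraries while the beta copies differ in promoter sequence and the alpha copies do not. The 120 bases before the RefSeq start of Hba-a1 match those of Hba-a2 at every one of 117 compared bases, so Hba-a2 stands for both. The promoters of Hbb-bs and Hbb-bt match at 73.9% of 119 bases. Sequences are from RefSeq on GRCm38.p6, in the direction of transcription, and lie at chr11:32296372-32296491 (plus strand), chr7:103827929-103828048 (minus strand) and chr7:103813924-103814043 (minus strand). GENCODE M21 starts the first exon of Hba-a1 and of Hbb-bt further upstream than RefSeq does. Capitals mark the TATA box (letters TATAA), the CCAAT box (letters CCAAT) and the CACCC box (letters CACCC), on either strand, and in Hbb-bt a reverse CCAAT directly adjoins a forward one.
Hba-a2: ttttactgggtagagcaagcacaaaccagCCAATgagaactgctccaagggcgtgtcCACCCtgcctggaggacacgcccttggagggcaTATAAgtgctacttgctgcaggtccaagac
Hbb-bs: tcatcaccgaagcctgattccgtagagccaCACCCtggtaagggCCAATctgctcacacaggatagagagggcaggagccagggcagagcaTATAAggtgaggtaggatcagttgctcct
Hbb-bt: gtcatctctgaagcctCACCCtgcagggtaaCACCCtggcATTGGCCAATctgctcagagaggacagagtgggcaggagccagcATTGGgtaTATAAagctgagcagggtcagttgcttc

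All 4 promoters held the TATA box, the CCAAT box and the CACCC box, against 11.8%, 21.3% and 31.7% of 32851 RefSeq promoters searched over the same length. CACCC is the core of the site bound by KLF1. None of the 4 held a GATA motif, searched as AGATAA or its variant AGATAG and as TGATAA or its variant TGATAG, on either strand within these 120 bases, which 12.8% of promoters held. A match or its absence describes these letters only.

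Globin levels ranged more widely within the irradiated mutant group than between any pair of group means. Hba-a1, the higher alpha copy, had 56981 and 5682 CPM in irradiated mutant libraries, 23395 and 34293 CPM in irradiated wild type, 5952 and 7665 CPM in unirradiated mutants and 9658 and 16928 CPM in unirradiated wild type, on library sizes scaled by TMM. Its 2 irradiated wild type values lay above all 4 unirradiated values, while the irradiated mutant libraries were the highest and the lowest of the 8. Hba-a2, the lower alpha copy, had 9312 and 713 CPM in irradiated mutants, 4377 and 4963 CPM in irradiated wild type, 726 and 906 CPM in unirradiated mutants and 1789 and 3085 CPM in unirradiated wild type. The order of the libraries was close to that of Hba-a1, and both unirradiated mutants lay below both unirradiated wild type libraries.

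Hbb-bs, the higher beta copy, had 52888 and 4280.4 CPM in irradiated mutants, 18608 and 22033 CPM in irradiated wild type, 7970.2 and 7652 CPM in unirradiated mutants and 9313 and 19287 CPM in unirradiated wild type. Replicate 2 of unirradiated wild type exceeded replicate 1 of irradiated wild type, so these 2 groups overlapped for Hbb-bs and not for either alpha gene. Hbb-bt, the lower beta copy, had 27428 and 1423 CPM in irradiated mutants, 5162 and 4566 CPM in irradiated wild type, 2166.4 and 1269.7 CPM in unirradiated mutants and 1687 and 3181 CPM in unirradiated wild type. It had the widest spread of the 4 genes, with the highest library 21.6-fold above the lowest, against 10.03-fold for Hba-a1, 13.1-fold for Hba-a2 and 12.4-fold for Hbb-bs. For Hbb-bt the lowest library was an unirradiated mutant, and for the other 3 genes it was replicate 2 of the irradiated mutants.

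**Figure D1:**
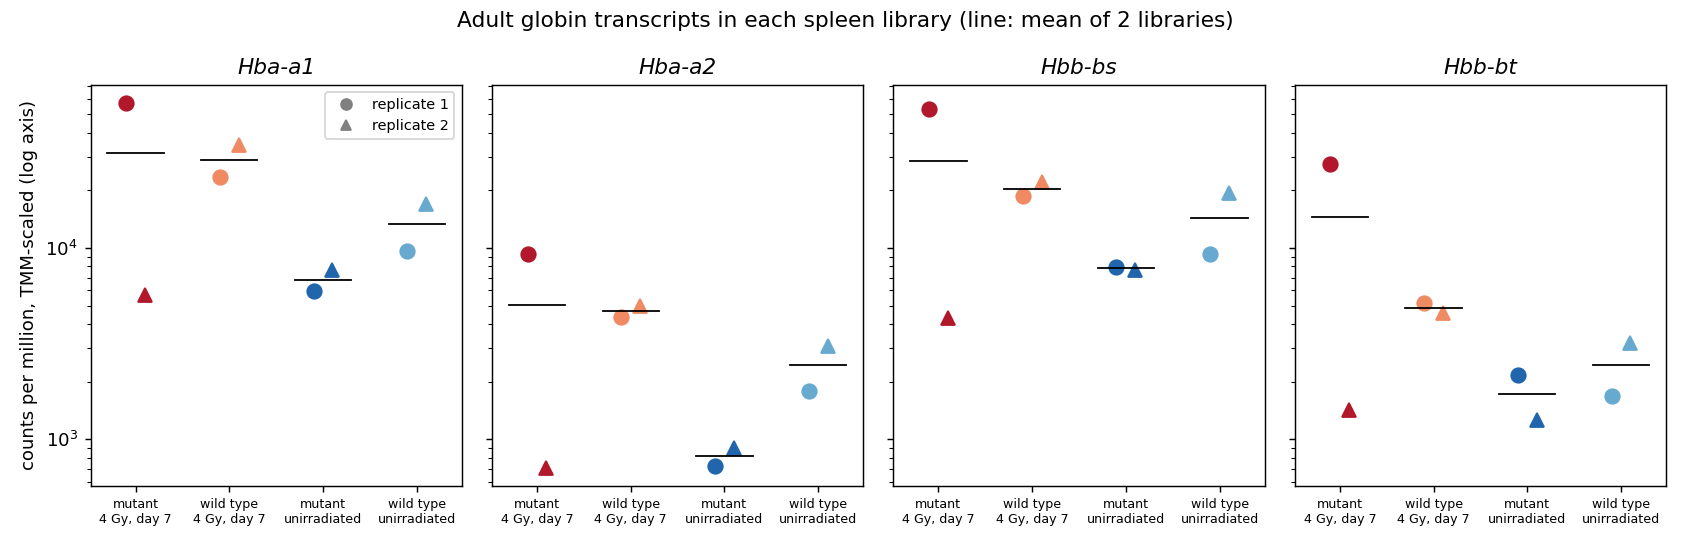
CPM of each globin gene in each library on a log axis, with groups along the x axis and a line at the mean of the 2 libraries of a group. The irradiated mutant replicates lie 10.03-fold apart for Hba-a1 and 19.3-fold apart for Hbb-bt, and the other groups' replicates lie at most 2.07-fold apart.

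Per kilobase of exon, Hba-a1 ranked first in all 4 irradiated libraries and Hbb-bs in all 4 unirradiated libraries. The gap was small, with the first gene 1.02 to 1.47 times the second. Hbb-bt and Hba-a2 shared the lower 2 places in an order that varied between libraries. By count, Hba-a1 also exceeded Hbb-bs in replicate 1 of unirradiated wild type and replicate 2 of unirradiated mutants. The split of first place by irradiation therefore depends on the exon lengths used. Among all genes, Hba-a1 ranked by count between 1 and 8 and Hbb-bs between 1 and 11. Hbb-bt ranked between 4 and 54 and Hba-a2 between 8 and 142. Pearson correlations of log2 CPM between pairs of these genes over the 8 libraries ran from 0.879, between Hba-a2 and Hbb-bt, to 0.986, between the alpha copies. These are descriptions over libraries that include the widely separated irradiated mutants.

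Together the 4 genes made up 10.3% and 1.30% of all counts in irradiated mutant libraries, 4.28% and 6.17% in irradiated wild type, 1.99% and 1.99% in unirradiated mutants and 2.63% and 4.56% in unirradiated wild type. Counting error is negligible beside these differences, with a 95% Wilson interval of 1.30% to 1.31% for the lowest library. Such intervals cover counting error only, since PCR copies are not independent molecules. The unirradiated mutants were nearly equal and lay below both unirradiated wild type libraries. Group means were 5.82% ± 6.39 in irradiated mutants, 5.22% ± 1.34 in irradiated wild type, 1.99% ± 0.00347 in unirradiated mutants and 3.59% ± 1.37 in unirradiated wild type (SD, n = 2 each).

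The share of counts did not differ between groups beyond what 2 libraries against 2 can show. The unirradiated mutants differed from unirradiated wild type by -1.60 percentage points, without overlap (two-sided exact permutation test, p = 0.333, the smallest p that this design allows). The other 3 differences had overlapping groups. Irradiated mutants minus irradiated wild type was 0.601 points (exact p = 1), irradiated minus unirradiated mutants was 3.83 points (exact p = 1) and irradiated minus unirradiated wild type was 1.63 points (exact p = 0.667). Adjusted over these 4 comparisons, every exact permutation p was 1.

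Over all 8 libraries, the balance between chains varied less than the amount. Alpha counts divided by beta counts gave 0.825 and 1.12 in irradiated mutants, 1.17 and 1.48 in irradiated wild type, 0.659 and 0.961 in unirradiated mutants and 1.04 and 0.891 in unirradiated wild type. The highest library was 2.24-fold above the lowest, against 7.94-fold for the globin share of counts. That 7.94-fold span is the gap between the irradiated mutant libraries. The libraries of the other groups ran from 1.99% to 6.17% in share, and they hold both ends of the balance. Irradiated wild type had the most alpha relative to beta, with the ratios of both libraries above all the others. On the log2 scale, irradiated mutants were 0.45 below irradiated wild type (difference -0.45) and irradiated wild type was 0.45 above unirradiated wild type, each without overlap and each with an exact permutation p of 0.333.

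Unirradiated mutants minus unirradiated wild type was -0.28, and irradiated minus unirradiated mutants was 0.27, both with overlapping groups (exact permutation p = 0.667). Pooled over genotype, the log2 alpha to beta ratio was 0.36 higher in irradiated libraries. Pooled over irradiation, it was lower in mutants than in wild type by a difference of -0.36. Each pooled difference had a stratified exact permutation p of 0.167 in a design whose smallest is 0.0556. After adjustment over these 6 comparisons the exact permutation p-values were 0.5 and 0.667. The pooled SD of the log2 ratio between replicates was 0.286, below the size of 4 of the 6 differences, and comparisons of 2 libraries against 2 could not have passed the test.

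**Figure D2:**
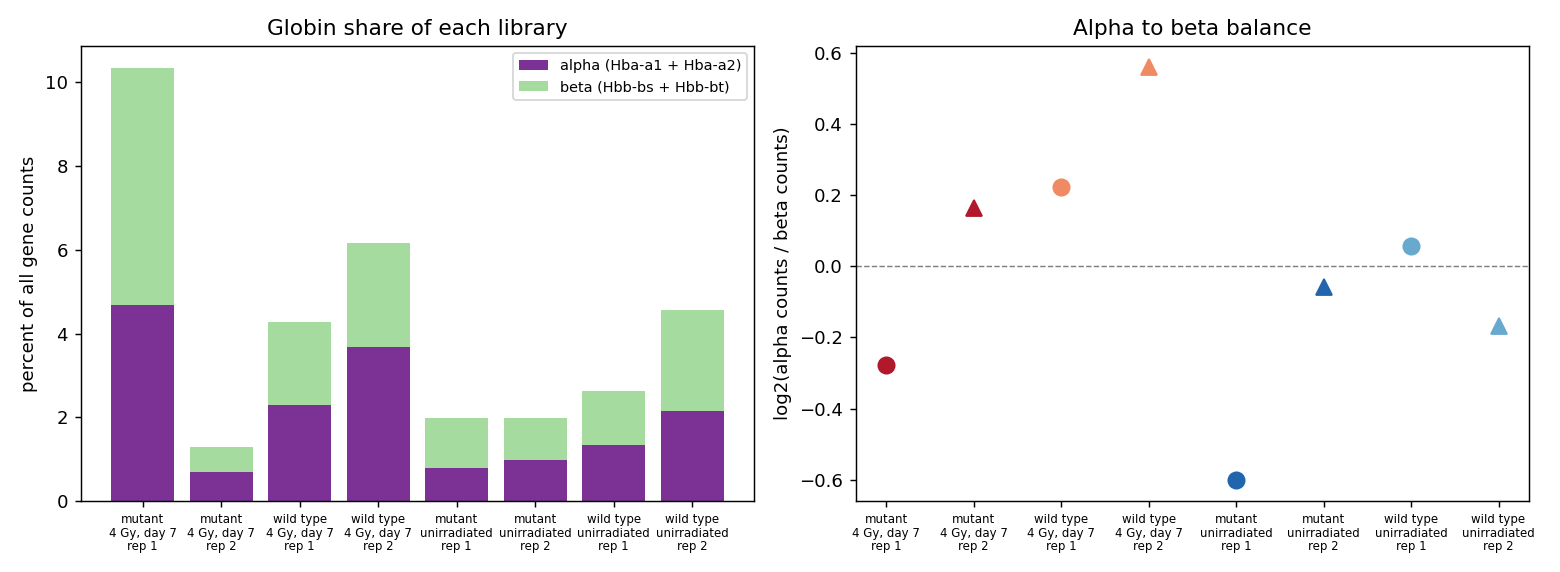
Left, the percent of all gene counts held by alpha (dark) and beta (light) globin genes in each library. Right, log2 of alpha over beta counts in each library, with a dashed line at equal counts; the irradiated wild type libraries, at 0.22 and 0.56, are the highest.

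In edgeR's quasi-likelihood fit of all 8 libraries over 17327 genes, globin transcripts were higher after irradiation in mean level in both genotypes, and none of the 4 genes passed an adjusted p of 0.05. In mutants the log2 fold change, irradiated over unirradiated, was 2.20 ± 0.95 (SE) for Hba-a1, 2.62 ± 0.99 for Hba-a2, 1.87 ± 0.99 for Hbb-bs and 3.07 ± 1.14 for Hbb-bt, with edgeR adjusted p from 0.181 to 0.301. The test called 104 genes in this comparison, 0.6% of those tested, of which 44 (0.254%) were higher. The median of the 4 globin values was 2.41, or 5.32-fold, beside a median of 0.15 over all genes. At an unadjusted p under 0.05 edgeR gave 3 of the 4, all but Hbb-bs, and 3836 genes in all (22.1%). DESeq2 called 2, Hba-a2 (adjusted p = 0.0368) and Hbb-bt (adjusted p = 0.0235), in a test that called 6.3% of all genes higher. Without the filter on low counts edgeR called all 4, in a fit that called 4.15% of genes higher.

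That mutant contrast rested on replicate 1 of the irradiated mutants. Without replicate 2, all 4 globin genes were higher and passed, with log2 fold changes of 2.93, 3.38, 2.62 and 3.86 for Hba-a1, Hba-a2, Hbb-bs and Hbb-bt and edgeR adjusted p from 9.21e-04 to 0.00290. That fit called 11.2% of all genes higher. Without replicate 1, the same 4 values were -0.30, -0.23, -0.90 and -0.31, and none passed. In each of these fits the lone irradiated mutant library is assumed to vary like the other groups.

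In wild type, irradiated over unirradiated, the log2 fold change was 1.12 ± 0.92 for Hba-a1, 0.94 ± 0.94 for Hba-a2, 0.51 ± 0.96 for Hbb-bs and 0.999 ± 1.07 for Hbb-bt, with edgeR adjusted p from 0.529 to 0.796. The test called 10 genes, 0.0577% of those tested, 2 of them higher (0.0115%). None of the 4 globin genes had an unadjusted p under 0.05, where 2991 genes (17.3%) did, and DESeq2 called none of them among 1161 genes (6.97%). Hba-a1, Hba-a2 and Hbb-bt were higher in both irradiated libraries than in both unirradiated ones, as were 29.7% of all genes. The median globin value was 0.97, or 1.96-fold, beside 0.09 over all genes. Scaling by raw library totals moved the median of all genes by -0.39 in the mutant and -0.34 in the wild type comparison. Relative to that median, the globins stood at 2.27 under TMM and 2.002 under raw totals in mutants, and at 0.88 and 0.89 in wild type.

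No globin gene passed the test between mutant and wild type mice in either irradiation state. Among irradiated mice, mutant over wild type, log2 fold changes were 0.12 ± 0.91 for Hba-a1, 0.10 ± 0.93 for Hba-a2, 0.49 ± 0.96 for Hbb-bs and 1.57 ± 1.08 for Hbb-bt (edgeR adjusted p = 1 for each). The test called 0 genes in all, 0.0%, with 696 genes at an unadjusted p under 0.05 and 73 called by DESeq2, and no globin was among either set. The direction depended on which mutant library was kept. Without mutant replicate 1 the 4 values were -2.30, -2.67, -2.20 and -1.73, and Hba-a1 (adjusted p = 0.0434) and Hba-a2 (adjusted p = 0.0219) passed edgeR's test in a fit that called 1.44% of genes lower. Without mutant replicate 2, Hbb-bt passed in the other direction, at 2.44 (adjusted p = 0.0335), in a fit that called 0.387% of genes higher.

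Among unirradiated mice, mutant over wild type, all 4 values were below 0, at -0.97 ± 0.92 for Hba-a1, -1.58 ± 0.96 for Hba-a2, -0.87 ± 0.97 for Hbb-bs and -0.50 ± 1.06 for Hbb-bt (edgeR adjusted p = 1 for each). The test called 0 genes, 0.0%, with 388 genes at an unadjusted p under 0.05, none of them a globin, and 60 called by DESeq2, again without a globin. Both mutant libraries were below both wild type libraries for Hba-a1, Hba-a2 and Hbb-bs, as they were for 25.0% of all genes. Markers of another cell type also differed here: the 6 granulocyte markers summed to 5472 and 10792 CPM in unirradiated mutants, against 1600.2 and 1369 CPM in unirradiated wild type, and to between 72.6 and 181 CPM in irradiated libraries. Their part in the globin values was not tested. A fit of the 4 unirradiated libraries alone, whose spread is not raised by the irradiated mice, called Hba-a2 at -1.55 (edgeR adjusted p = 0.0116), in a fit that called 0.594% of genes lower.

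The difference between the irradiation effects, mutant minus wild type, was 1.08 ± 1.29 for Hba-a1, 1.68 ± 1.33 for Hba-a2, 1.36 ± 1.36 for Hbb-bs and 2.07 ± 1.51 for Hbb-bt on the log2 scale (edgeR adjusted p = 0.99997 for each). No gene was called in this contrast, 0.0%, with 277 at an unadjusted p under 0.05 and 4 called by DESeq2, none a globin. Without replicate 1 of the irradiated mutants these values turned negative, between -1.36 and -1.11.

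**Figure D3:**
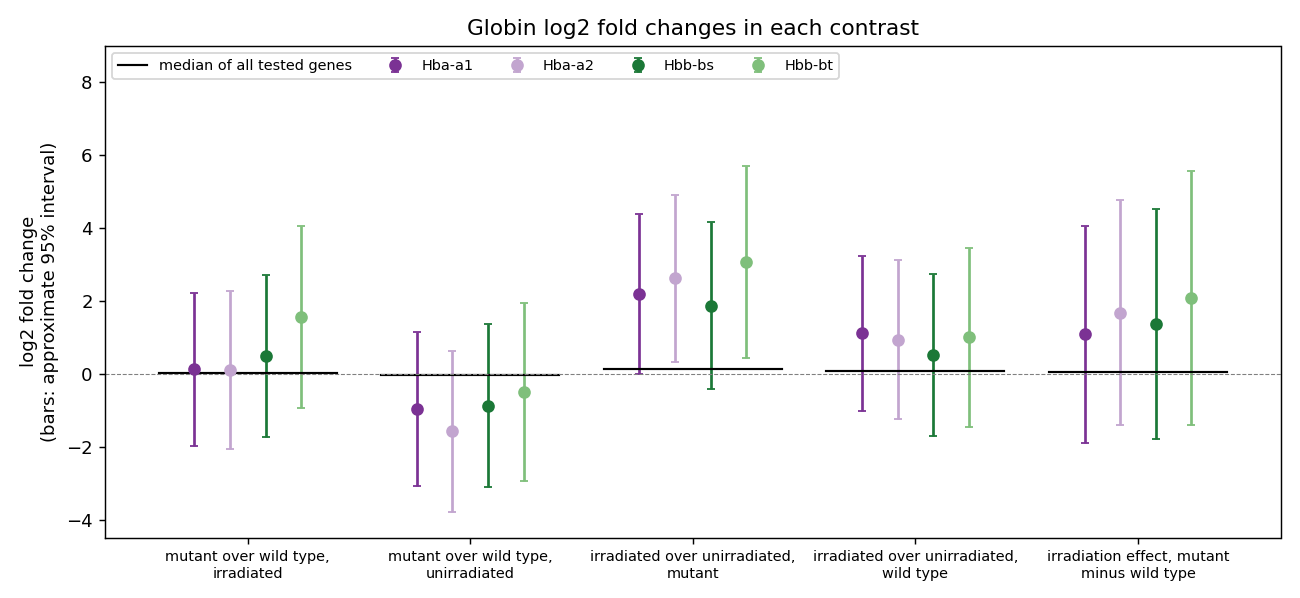
Log2 fold change of each globin gene in each contrast, with approximate 95% intervals from edgeR's SE and a black line at the median of all tested genes. Intervals span about 4 or more log2 units and only those of Hba-a1, Hba-a2 and Hbb-bt for irradiation in mutants lie above 0.

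The split between copies was examined after its values had been seen. Hbb-bt made up 34.2% and 24.9% of beta counts in irradiated mutants, 21.7% and 17.2% in irradiated wild type, 21.4% and 14.2% in unirradiated mutants and 15.3% and 14.2% in unirradiated wild type. Within each genotype, both irradiated libraries were above both unirradiated libraries, and across genotypes the ranges overlapped. The irradiated mean exceeded the unirradiated mean by 8.22 percentage points (stratified exact permutation test, two-sided, p = 0.0556, the smallest that 36 arrangements allow). Leaving out 1 library at a time gave differences between 5.00 and 10.7 points.

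Hba-a2 made up 14.05% and 11.1% of alpha counts in irradiated mutants, 15.8% and 12.6% in irradiated wild type, 10.9% and 10.6% in unirradiated mutants and 15.6% and 15.4% in unirradiated wild type. The irradiated mean exceeded the unirradiated mean by 0.278 points (stratified exact permutation p = 0.556). This pooled value joins opposite directions in the genotypes. In mutants the mean was 12.6% in irradiated and 10.7% in unirradiated libraries, with both irradiated libraries above both unirradiated ones. In wild type it was 14.2% and 15.5%, with overlapping groups. The low alpha shares were those of the unirradiated mutants and of replicate 2 of the irradiated mutants. Because most 50-base words of a copy occur in its partner, these splits depend on the counting rule, whose part was not tested.

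**Figure D4:**
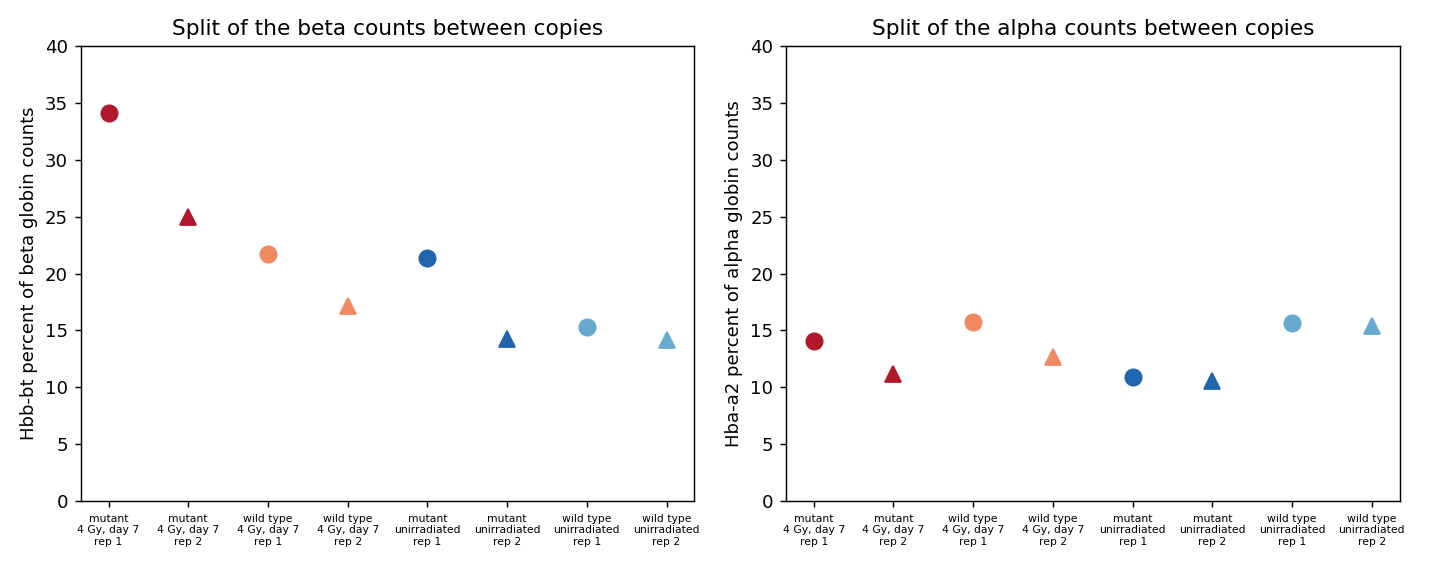
Left, Hbb-bt as a percent of beta globin counts in each library; right, Hba-a2 as a percent of alpha globin counts. The Hbb-bt share runs from 14.2% to 34.2%, and the Hba-a2 share from 10.6% to 15.8%.

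Among other globin genes, 10 of 12 listed symbols were in the count table. Of these, 6 had enough counts to be tested, and none was called in any contrast. Hbq1b, a theta globin gene of the alpha cluster, had 143 and 10.2 CPM in irradiated mutants, 76.4 and 53.8 CPM in irradiated wild type, 19.5 and 16.7 CPM in unirradiated mutants and 21.5 and 20.0 CPM in unirradiated wild type. Its libraries followed the adult globins, with the irradiated mutants highest and lowest. Cytoglobin, encoded by Cygb and made by fibroblast-like cells, did not: it had 11.2 and 36.5 CPM in irradiated mutants, 15.2 and 38.8 CPM in irradiated wild type, 6.88 and 9.20 CPM in unirradiated mutants and 10.5 and 11.9 CPM in unirradiated wild type. Hbq1a, the other theta copy, lay between 0.553 and 11.3 CPM.

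Hbb-y, the embryonic epsilon-type beta globin, was picked out after its values were seen. It had 2.92 and 0.553 CPM in irradiated mutants, 4.32 and 3.09 CPM in irradiated wild type, 0.305 and 0.186 CPM in unirradiated mutants and 0.176 and 0.253 CPM in unirradiated wild type. All 4 irradiated libraries were above all 4 unirradiated libraries, unlike any adult globin gene. The closest values were 0.553 and 0.305 CPM, and the share of all genes that separate in this way was not counted. The log2 fold change for irradiation was 2.72 ± 0.90 in mutants (edgeR adjusted p = 0.150) and 4.09 ± 0.93 in wild type (edgeR adjusted p = 0.142), neither of which passed. The unirradiated values are near the floor that 3 counts set in each library, 0.131 to 0.350 CPM over the 8 libraries.

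The rest of the erythroid programme was examined through lists of genes for haem synthesis and iron uptake, the red cell membrane and its enzymes, late erythroid genes and erythroid regulators. edgeR called none of their tested genes in any contrast. For irradiation in mutants, 16 of 17 haem and iron genes, 20 of 21 membrane and enzyme genes, 17 of 17 late erythroid genes and 14 of 21 regulators had log2 fold changes above 0, with medians of 1.47, 1.76, 1.81 and 0.83. For irradiation in wild type the counts were 16 of 17, 20 of 21, 16 of 17 and 15 of 21, with medians of 0.98, 1.58, 1.37 and 0.84. In summed CPM of each of these lists, replicate 2 of the irradiated mutants lay below every unirradiated library. For haem and iron genes it had 3084 CPM, and the lowest unirradiated library had 3933 CPM. For genotype, medians lay between -0.02 and 0.17 in irradiated mice and between -0.12 and 0.03 in unirradiated mice, where the globin median was -0.92.

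Individual genes of these lists show the same irradiated mutant split as the globins. Alas2, which catalyses the first step of haem synthesis in erythroid cells, had 4214 and 233 CPM in irradiated mutants, 1528 and 1820 CPM in irradiated wild type, 832 and 693 CPM in unirradiated mutants and 1201 and 1447 CPM in unirradiated wild type. Slc25a37, the mitochondrial iron importer mitoferrin, had 7769 and 852 CPM in irradiated mutants, 4895 and 4311 CPM in irradiated wild type, 675 and 608 CPM in unirradiated mutants and 787 and 688 CPM in unirradiated wild type. The irradiated wild type values of Alas2 lay just above those of unirradiated wild type, whereas those of Slc25a37 lay far above every unirradiated value. Slc4a1, the band 3 anion exchanger of the red cell membrane, had 8925 and 756 CPM in irradiated mutants, 5091 and 3648 CPM in irradiated wild type, 1407 and 1027 CPM in unirradiated mutants and 1434 and 888 CPM in unirradiated wild type.

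The other abundant members of these lists also had values above 0 for irradiation in both genotypes, and none passed. Tfrc, the transferrin receptor, had a log2 fold change for irradiation of 2.99 ± 0.98 in mutants and 2.07 ± 0.95 in wild type (edgeR adjusted p = 0.149 and 0.306). Car2, a carbonic anhydrase, had 2.22 ± 0.85 and 1.93 ± 0.84, and Prdx2, a red cell peroxiredoxin, 1.82 ± 0.82 and 1.504 ± 0.81, in mutants and wild type, with edgeR adjusted p from 0.189 to 0.359. Xpo7, the nuclear export receptor exportin 7, had 2.15 ± 0.80 in mutants and 2.12 ± 0.80 in wild type (edgeR adjusted p = 0.181 and 0.249). Ube2l6, which conjugates the ubiquitin-like protein ISG15, had 1.81 ± 0.83 and 0.75 ± 0.81, and Tent5c, a poly(A) polymerase, 2.03 ± 0.86 and 1.45 ± 0.84, with edgeR adjusted p from 0.218 to 0.630. The regulators E2f2, Tal1 and Lmo2 had 1.47 ± 0.87, 1.78 ± 0.92 and 1.24 ± 0.75 in mutants, all with adjusted p above 0.05 by edgeR. For these regulators, Prdx2, Ube2l6 and Tent5c, replicate 2 of the irradiated mutants lay below both unirradiated mutants. Prdx2, for example, had 441 CPM there, against 590 and 557 CPM in unirradiated mutants. The mutant values of these genes above 0 therefore came from replicate 1. The ferritin genes Fth1 and Ftl1 and the adhesion gene Vcam1 had 1.31 ± 0.42, 1.12 ± 0.37 and 1.58 ± 0.40 for irradiation in mutants, and Vcam1 came closest to the threshold (edgeR adjusted p = 0.106). These 3 stood for haemoglobin clearance and iron recycling. Of the 11 genes of that list tested, 1 was called higher by edgeR for irradiation in mutants: Hpx, the plasma haem carrier haemopexin made chiefly by liver, with 18.9 and 3.59 CPM in irradiated mutants and 0.131 and 0.186 CPM in unirradiated mutants (log2 fold change 6.08 ± 0.94, adjusted p = 0.0416). Its unirradiated values rest on few counts, and Hpx moves with the hepatocyte markers given above.

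To set globin RNA against the erythroid cells that carry it, the counts of 5 other erythroid genes (Alas2, Slc4a1, Epb42, Klf1 and Gata1) were summed. These came to 15499 and 1212 CPM in irradiated mutants, 8059 and 6332 CPM in irradiated wild type, 2611 and 2048 CPM in unirradiated mutants and 3090.5 and 2661 CPM in unirradiated wild type. The irradiated mutant replicates differed 12.8-fold in this sum and 12.1-fold in summed globin CPM. Globin counts per erythroid count were therefore nearly equal in them, at 9.46 and 9.98, against 6.40 and 10.4 in irradiated wild type, 6.44 and 8.54 in unirradiated mutants and 7.26 and 15.96 in unirradiated wild type.

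Over the 8 libraries the globin share of counts spanned 7.94-fold, which is the gap between the irradiated mutant libraries. In the libraries of the other groups it ran from 1.99% to 6.17%. The ratio of globin to erythroid counts, added after values had been seen, spanned 2.50-fold. It spanned 4.72-fold with Slc4a1 alone as the denominator and 3.55-fold with the red cell membrane and enzyme list. Replicate 1 of irradiated wild type was the lowest in each ratio and replicate 2 of unirradiated wild type the highest. Both ends of each ratio thus lay outside the irradiated mutants. Without replicate 2 of unirradiated wild type the spans were 1.63-fold, 1.78-fold and 1.86-fold in the same order. Irradiated minus unirradiated, the log2 ratio of globin to erythroid counts differed by -0.0054 (stratified exact permutation p = 1). Leaving out 1 library at a time gave -0.16 to 0.27. This pooled value joins opposite directions in the genotypes. Mean log2 ratios were 3.28 in irradiated and 2.89 in unirradiated mutants, and 3.03 in irradiated and 3.43 in unirradiated wild type. The pooled SD of this log2 ratio between replicates was 0.494. With the red cell membrane and enzyme list, mean log2 ratios were 1.54 in irradiated and 1.78 in unirradiated libraries.

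**Figure D5:**
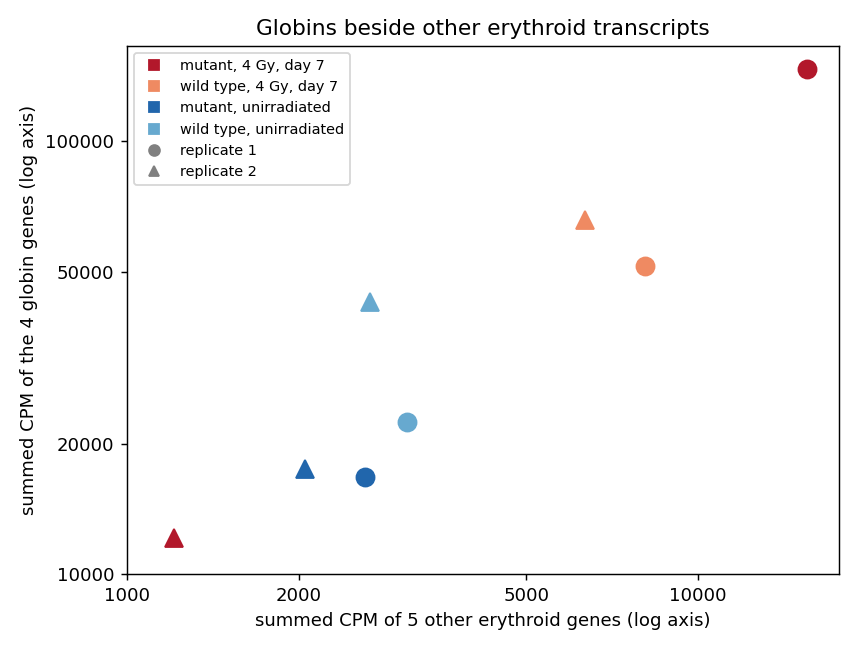
Summed CPM of the 4 globin genes against summed CPM of 5 other erythroid genes, 1 point per library, both axes logarithmic. The irradiated mutant libraries occupy the upper right and lower left corners, and replicate 2 of unirradiated wild type has the most globin for its erythroid sum, 15.96 counts per count.

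The genes whose levels followed summed globin most closely were ranked among 10919 genes by Pearson correlation of log2 CPM over the 8 libraries, given as a description because all points share the wide irradiated mutant pair. The first 10 were Fam220a (0.990), Mkrn1 (0.989), Slc25a39 (0.986), Rundc3a (0.986), Kctd14 (0.983), Ube2l6 (0.980), March2 (0.979), Mrm1 (0.979), Ucp2 (0.978) and Oaz1 (0.977). Mkrn1 and March2 encode ubiquitin ligases, Ube2l6 a ubiquitin-conjugating enzyme and Slc25a39 a mitochondrial carrier. Rundc3a and Ube2l6 are members of the late erythroid list. Other members of the erythroid lists ranked from 36 (Isg20, 0.952) to 10726 (Stat5a, -0.848). Between them were Epb41 at 69, Alas2 at 133 (0.922), Klf1 at 418 and Slc4a1 at 442 (0.865).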

How the data were processed

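RNA was sequenced from 8 spleens, 2 in each group, and grouped by title. The deposited table holds whole-number counts per gene as the authors made it, not normalised. The submitters' processing notes name featureCounts, Subread and Trim Galore with the builds mm10 and hg38; they do not state versions, the strand setting or the treatment of reads with several matches. Symbols for 52403 of 52636 identifiers came from GENCODE M21 (GRCm38), and 0 table lines named no gene.

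Library totals were 12147309 and 16788531 counts in irradiated mutants, 13387859 and 12100784 in irradiated wild type, 19367791 and 18932468 in unirradiated mutants and 19455470 and 14738248 in unirradiated wild type. A floor of 3 counts equals 0.131 to 0.350 CPM on the TMM-scaled totals that all CPM values use. Chi-square per degree of freedom between replicates was 19.1 to 331, beyond sampling noise, so none was merged.

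filterByExpr (min.count 10 and min.total.count 15) left 17327 genes, which were scaled by TMM and tested with edgeR 4.0.16 (R 4.3.3) in a quasi-likelihood F test, 1 term per group, with Benjamini-Hochberg adjustment over them, called at 0.05. Residual degrees of freedom were 4, and SEs are the absolute log2 fold change over the square root of F. Shares and ratios were compared by two-sided exact permutation tests (scipy 1.17.1), within genotype or within irradiation state where pooled. Alternatives were DESeq2 1.42.0, other scalings, no filter, fits of only the groups compared, a replicate block and leaving out each library. The procedure was tested on simulated data. Replicate numbers were not taken as pairs: no label ties them, and correlations of the replicate differences between groups ran from 0.0472 to 0.578.

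The members and lists were chosen with earlier results of these data known. From each list, the 3 tested genes with the highest mean CPM were named. Hbb-y, Hpx and the genes of the erythroid sum lie outside that rule. The genes most like the globins were the 10 with the highest correlation among those averaging at least 5 CPM. Some items of the lists are not reported here and were left out of every list, count and sum.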

Additional observations from a re-analysis of the deposited data

How the results depend on the processing

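The globin results turned mainly on which irradiated mutant library was kept, and 15 other settings were run. Leaving out 1 library at a time, the median globin log2 fold change ran from -2.25 to 1.13 for genotype in irradiated mice, -1.31 to -0.38 for genotype in unirradiated mice, -0.30 to 3.15 for irradiation in mutants, 0.61 to 1.46 for irradiation in wild type and -1.30 to 2.33 for the interaction. For genotype in irradiated mice Hba-a1 ran from -2.30 to 0.93, Hba-a2 from -2.67 to 0.94, Hbb-bs from -2.20 to 1.33 and Hbb-bt from -1.73 to 2.44. For irradiation in mutants they ran from -0.30 to 2.93, -0.23 to 3.38, -0.90 to 2.62 and -0.31 to 3.86, in the same gene order, and for the interaction from -1.36 to 1.87, -1.11 to 2.49, -1.36 to 2.17 and -1.25 to 2.91. Hbb-bt for genotype in unirradiated mice ran from -0.94 to 0.027. Globin share differences ran from -3.92 to 5.12 points for genotype in irradiated mice, -2.57 to -0.637 in unirradiated mice, -0.687 to 8.36 for irradiation in mutants and 0.660 to 2.60 in wild type. The log2 alpha to beta differences ran from -0.67 to -0.23, -0.55 to -0.0030, 0.0019 to 0.55 and 0.28 to 0.62 in the same order of comparisons, 0.22 to 0.51 for irradiation over both genotypes and -0.48 to -0.23 for genotype over both states, so none changed sign. Genes called ran from 0 to 431, 0 to 13, 0 to 4355, 0 to 2579 and 0 to 0 in the 5 contrasts. Without a filter on low counts, 168 and 143 genes were called for genotype in irradiated and unirradiated mice, 2147 and 1580 for irradiation in mutants and wild type, and 52 for the interaction; DESeq2 called 73, 60, 1962, 1161 and 4. Fits of only the 2 groups compared called 500 for genotype in unirradiated mice, 0 for irradiation in mutants and 1142 in wild type, and raw library totals called 60 for irradiation in mutants. The replicate block called 253 genes for irradiation in mutants and 16 in wild type, turned Hba-a2 for genotype in irradiated mice to -0.084, and changed no globin call. Raw totals turned Hba-a1 and Hba-a2 in that comparison to -0.15 and -0.17. The ratio of Hba-a2 to Hbb-bt alone, the lower copies, gave -1.22 and -1.05 for genotype in irradiated and unirradiated mice. It gave -0.25 and -0.079 for irradiation in mutants and wild type, and -0.16 for irradiation over both genotypes. For genotype over both states it gave -1.14 (exact permutation p = 0.0556). The log2 ratio of Hba-a1 to Hbb-bs alone, the higher copies, ran from 0.11 to 0.64 in irradiated libraries and -0.42 to 0.052 in unirradiated libraries. It averaged 0.024 in mutants and 0.21 in wild type. Both ratios depend on the uncertain split between copies. The cause of these shifts was not tested.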
